A study of Mus musculus with 7 samples.

Results

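RNA polymerase II (RNAP2), the enzyme that transcribes protein-coding genes, was mapped in gastrocnemius muscle, the large calf muscle, by ChIP-seq, which sequences the DNA that an antibody pulls down with a protein. The 2 libraries came from wild-type C57BL/6J males aged 5 months, killed at zeitgeber time (ZT) 4, that is 4 h after lights on, and fed standard chow in a cycle of equal light and dark. The antibody was mouse clone 8WG16 in the series description and is written 8WG1 in the sample labels. No genotype or treatment was compared, and whether a library came from 1 animal or a pool is not stated in the sources used here. Each library has its own list of peaks, called by the authors against input DNA, and the series also holds 2 lists each for the clock proteins BMAL1 (ZT 4) and REV-ERBα (ZT 8). Peaks of the 2 RNAP2 lists that overlapped by 1 bp or more were merged, and a merged region was kept when both lists had a peak in it. This gave 10752 regions, out of 245079 merged RNAP2 regions and of 479430 merged regions over the 6 lists of the series. The strength of a region is the lower of the 2 replicates' −log10 p, where p is the peak caller's own probability for the enrichment over input. There is 1 factor at 1 time, so every statement below is a description of 2 libraries and no test between conditions was made.

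RNAP2 assembles with general transcription factors at the transcription start site (TSS) of a gene. In many genes it then halts a short distance downstream before it is released into the gene body, and it runs on past the end of the transcript before it leaves the DNA. Signal is therefore usually concentrated at the TSS, and a gene that is covered from one end to the other is as a rule one that is transcribed very often. Clone 8WG16 is known to recognise the repeats of the polymerase's tail mainly where they are unphosphorylated, the form found at promoters, so that elongating enzyme may be seen less well. Fast-twitch fibres, which make up most of the mouse gastrocnemius, use their own isoforms of myosin, troponin and the calcium pump, and slow-twitch fibres another set.

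The tissue label was set beside marker genes. The markers were chosen with earlier results of these data known, so this is no independent check of the label. A region within 1 kb of a TSS was present at 13 of 14 markers of the skeletal muscle fibre, against 30.1% of all 21938 protein-coding genes. The 1 exception was Cacna1s, the voltage sensor of the muscle membrane, where replicate 1 listed a peak (−log10 p 9.46) and replicate 2 none. By contrast, no TSS region was found at the 12 hepatocyte, 10 endothelial, 8 smooth muscle, 8 cardiomyocyte, 7 erythroid and 6 tenocyte markers. Of the other marker lists, 3 of 10 fibroblast genes had a TSS region (Col1a1, Col1a2 and Dcn), 2 of 10 neuronal genes (Camk2a and Nefl), and 1 gene each of 10 macrophage (Csf1r), 8 satellite cell (Sdc4), 8 Schwann cell, 7 adipocyte (Fabp4) and 8 keratinocyte genes (Krt10). The endothelial markers differed between the lists. In replicate 1, 7 of 10 had a TSS peak, led by Egfl7 (17.8) and Cldn5 (11.6), whereas in replicate 2 only Esam had one (3.51). In bulk muscle, fewer cells of a type and less polymerase per cell cannot be told apart.

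The promoters below, from RefSeq on GRCm38.p6, are a selection and stand for no larger set. Polr2a, H3f3b, Txnip, Tob1 and Klf6 are among the genes with the strongest regions. Ckm, Myh4, Acta1 and again Txnip are covered along most of their length. Ldha and Rplp0 have a region at the TSS and none in the body. Each promoter runs 5′ to 3′ on the gene's strand from 100 bases before the annotated start to 20 bases from it onwards. Capitals mark TATAA (the TATA element, searched in the gene's direction and in reverse), GGGCGG (bound by SP factors), CCAAT (bound by NF-Y), CAGCTG (an E-box of myogenic factors) and CACGTG (the E-box of clock factors), on either strand.

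Polr2a (chr11:69758614-69758733, - strand): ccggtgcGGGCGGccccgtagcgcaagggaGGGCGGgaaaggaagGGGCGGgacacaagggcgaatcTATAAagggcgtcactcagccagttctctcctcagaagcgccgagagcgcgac
H3f3b (chr11:116024485-116024604, - strand): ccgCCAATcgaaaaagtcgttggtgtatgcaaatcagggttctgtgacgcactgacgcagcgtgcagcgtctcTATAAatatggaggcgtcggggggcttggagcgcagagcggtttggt
Txnip (chr3:96557857-96557976, + strand): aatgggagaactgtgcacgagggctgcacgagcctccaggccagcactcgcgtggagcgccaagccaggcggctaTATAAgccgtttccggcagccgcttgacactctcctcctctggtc
Tob1 (chr11:94211354-94211473, + strand): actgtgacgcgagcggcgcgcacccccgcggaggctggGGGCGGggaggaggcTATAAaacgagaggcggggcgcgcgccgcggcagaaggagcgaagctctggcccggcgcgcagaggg
Ckm (chr7:19410994-19411113, + strand): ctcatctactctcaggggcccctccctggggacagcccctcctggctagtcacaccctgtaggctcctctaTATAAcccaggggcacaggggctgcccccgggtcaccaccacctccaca
Myh4 (chr11:67237712-67237831, + strand): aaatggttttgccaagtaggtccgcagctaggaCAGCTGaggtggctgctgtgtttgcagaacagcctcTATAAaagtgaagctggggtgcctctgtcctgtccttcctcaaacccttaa
Acta1 (chr8:123894756-123894875, - strand): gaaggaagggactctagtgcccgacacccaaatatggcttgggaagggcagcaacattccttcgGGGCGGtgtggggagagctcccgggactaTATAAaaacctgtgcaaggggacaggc
Klf6 (chr13:5861389-5861508, + strand): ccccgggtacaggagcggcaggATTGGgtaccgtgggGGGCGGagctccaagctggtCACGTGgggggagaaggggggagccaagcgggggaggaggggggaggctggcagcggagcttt
Ldha (chr7:46845704-46845823, + strand): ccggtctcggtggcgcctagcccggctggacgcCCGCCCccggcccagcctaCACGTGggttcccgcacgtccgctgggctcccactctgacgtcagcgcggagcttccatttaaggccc
Rplp0 (chr5:115559367-115559486, + strand): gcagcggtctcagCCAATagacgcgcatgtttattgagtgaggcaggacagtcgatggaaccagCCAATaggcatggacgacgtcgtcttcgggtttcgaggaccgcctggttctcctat

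TATAA began 33 bases before the RefSeq start in Polr2a, 27 in H3f3b, 25 in Txnip, 47 in Tob1, 29 in Ckm, 31 in Myh4 and 7 in Acta1. The gene models used for regions can start elsewhere. That of Acta1 starts at 123894751, downstream of the window shown, so the distance of 7 depends on the start chosen. In Klf6, Ldha and Rplp0 these letters are not in the window shown. Nor are they in the same windows of Actg1 (strength 69.0), Fth1 (67.6), Pvalb (46.8), Gapdh (45.3) and Tnnc2 (30.6), which are not printed. The share of printed promoters with TATAA is therefore no measure of strong or covered genes. Beginning 40 to 20 bases before the start, TATAA stood in 5.89% of promoters with a strength of 10 or more. Polr2a held GGGCGG at 3 places, Rplp0 held CCAAT at 2, Myh4 held CAGCTG, and Klf6 and Ldha held CACGTG.

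Regions lay mainly at the starts of genes, and the stronger they were, the more often they did. Of the 10752 regions, 6090 (56.6%) overlapped a window of 1 kb to each side of a TSS of a protein-coding gene, and these windows make up 2.37% of the genome. A further 2090 regions (19.4%) lay elsewhere in a gene body, 212 (1.97%) within 5 kb past a 3′ end and 2360 (21.9%) outside all of these. The TSS share rose from 16.0% of the 2915 regions with a strength under 2 to 40.3% between 2 and 3, 77.2% between 3 and 5, 91.6% between 5 and 10, and 92.8% of the 946 regions at 10 or more. Median strength was 4.71 at TSSs and 1.99 both in gene bodies and outside. Among peaks found in 1 list only, 6.67% of 76366 in replicate 1 and 2.69% of 157961 in replicate 2 lay at a TSS.

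**Figure D1:**
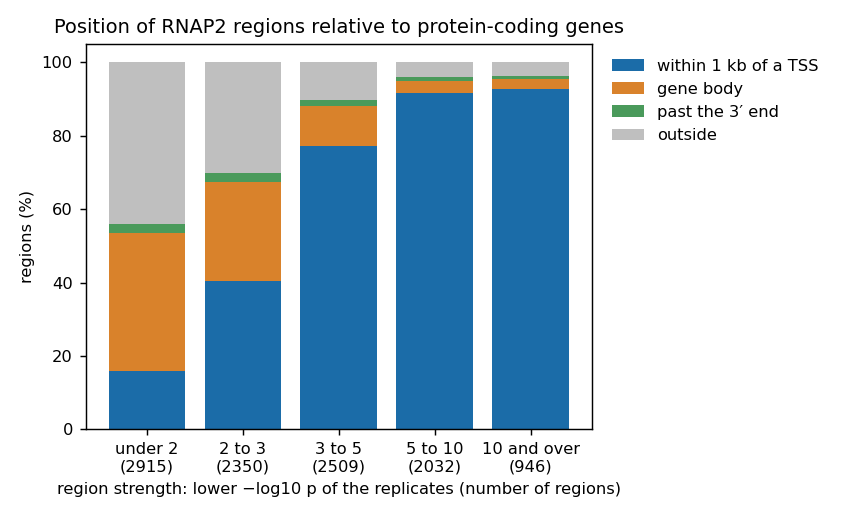
Share of RNAP2 regions (y axis, percent) by position relative to protein-coding genes, for 5 classes of region strength (x axis, lower −log10 p of the 2 replicates, with the number of regions). The part within 1 kb of a TSS grows from 16.0% in the weakest class to 92.8% in the strongest.

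The 2 lists differed in length and in the height of their peaks. Replicate 1 held 87870 peaks with a median width of 214 bp and a median −log10 p of 3.21, and replicate 2 held 168821 with 356 bp and 1.99. The commonest −log10 p in each list equalled its median and was shared by 23.8% and 31.0% of its peaks. A TSS peak was listed for 10270 genes in replicate 1 and 9607 in replicate 2. The −log10 p was higher in replicate 1 in 80.1% of regions, with a median of 8.46 against 4.93 at TSSs. Across regions the rank correlation of the replicates' −log10 p was 0.621 at the 6090 TSS regions, 0.267 at the 2090 body regions and 0.219 at the 2360 regions outside genes. These are descriptions across regions of the same 2 libraries. Away from TSSs the 2 lists thus shared less of their order.

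**Figure D2:**
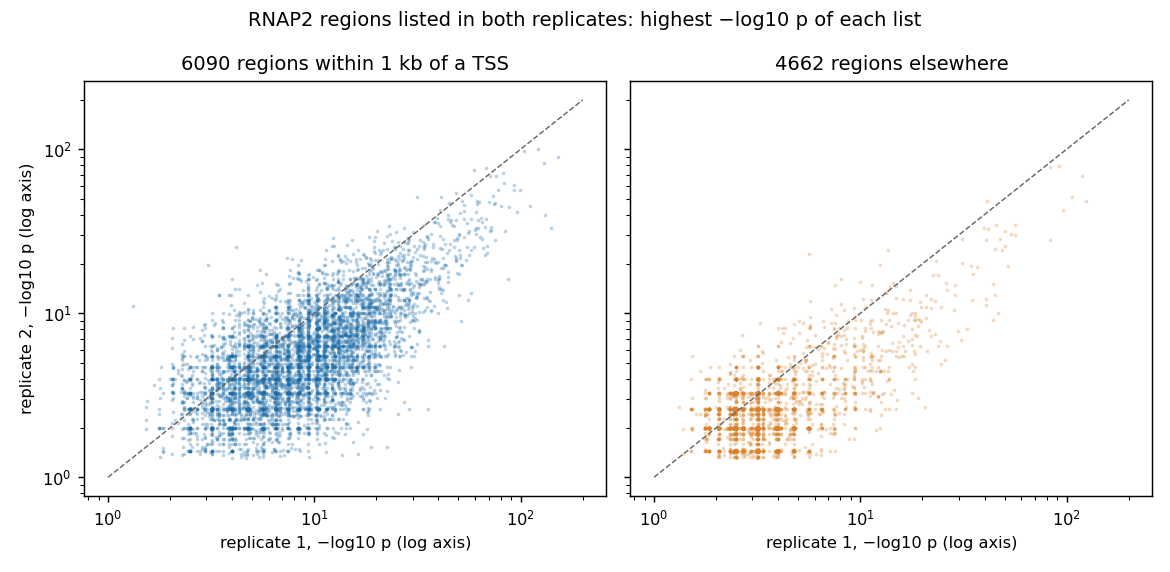
Highest −log10 p of each region in replicate 1 (x axis) and replicate 2 (y axis), both on log axes, with 1 point per region and the dashed line marking equal values. Regions at a TSS (left, 6090) spread along the line and mostly below it, while the others (right, 4662) crowd at the lowest values that both lists hold.

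At TSSs the peaks sat on the start itself. The summit lay a median of 12 bp downstream of the nearest TSS in replicate 1 and 16.5 bp downstream in replicate 2, and within 100 bp of it in 61.8% and 62.3% of the 6090 regions. Summits of the 2 replicates in the same region were a median of 69 bp apart. Among the 14164 genes of 10 kb or more, the share with a peak over a given position was highest 100 bp inside the gene, at 35.2% in replicate 1 and 28.2% in replicate 2, and had fallen to 0.939% and 2.89% at 5 kb. At the other end the rise was small. The share went from 1.20% at the 3′ end to 2.00% at 2000 bp past it in replicate 1, and from 3.09% to 3.71% at 2700 bp in replicate 2.

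**Figure D3:**
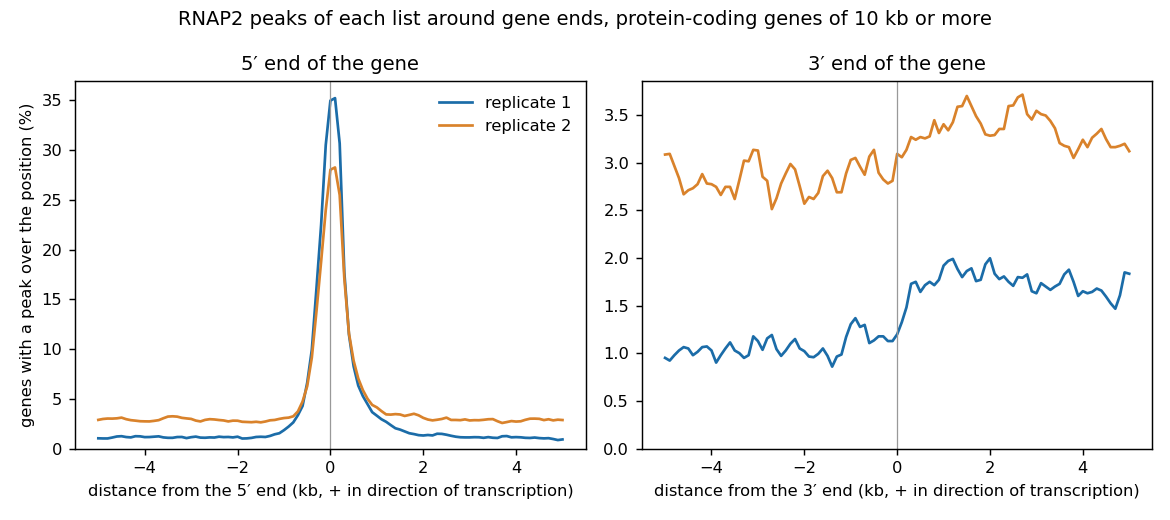
Share of protein-coding genes of 10 kb or more (y axis, percent) with a peak of replicate 1 or replicate 2 over each position around the 5′ end (left) and the 3′ end (right), with distance in kb on the x axis and different y scales. Both replicates peak at 35.2% and 28.2% just inside the 5′ end and reach 2.00% and 3.71% past the 3′ end.

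By gene, 6597 of the 21938 protein-coding genes (30.1%) had a region at a TSS, 1949 (8.88%) had one in the body, 336 (1.53%) had one within 5 kb past the 3′ end, and 7826 (35.7%) had any. Most of them, 5661 genes, had a region at the TSS alone. Another 765 had it at the TSS and in the body, and 79 at all 3 places. The 1064 genes with a body region alone were long, with a median span of 125220 bp, and their regions were weak (median strength 1.99). The share of genes with a body region rose with gene length, from 1.82% in the shortest quartile of genes to 22.4% in the longest. The 79 genes with regions at all 3 places were short instead (median 9012 bp) and strong (median strength 12.0). A region can belong to more than 1 gene, since 817 regions lay in the TSS windows of 2 or more genes. Counts for the gene lists below stand beside the shares of all genes, 30.1% at a TSS, 8.88% in the body and 1.53% past the 3′ end.

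The strongest regions were at genes for small nuclear RNAs, for polymerase itself, for early response regulators and for cytoskeletal and housekeeping proteins. The highest lay on chromosome 11 (mm10, 87426407 to 87427200) where the −log10 p reached 122 and 101 in the 2 replicates. By gene model it falls at Tex14, a testis gene, and it lies over the small nuclear RNA gene Gm22068. Of the 20 strongest regions, 2 others in the Tex14 span lay over Rnu1a1, a U1 spliceosomal RNA gene (91.4 and 79.0), and over Rnu3b3, a U3 nucleolar RNA gene (83.3 and 77.5). Another at the TSS of Eapp (83.5 and 62.1) lay over the small nuclear RNA gene Gm22513. One outside all protein-coding genes lay over Rnu11, the U11 RNA of the minor spliceosome (106 and 50.9). So 5 of the 20 strongest regions lay over genes for small RNAs of the nucleus, and they were high in both replicates. Over all 10752 regions, 23 overlapped a small nuclear RNA gene and 18 a small nucleolar RNA gene.

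Among the other strongest regions, Tob1, which codes for an antiproliferative adaptor of mRNA decay, had 104 in replicate 1 and 97.9 in replicate 2. Polr2a, the largest subunit of RNAP2 and the antibody's own target protein, had 152 and 89.5, the highest value of all in replicate 1. Txnip, an inhibitor of thioredoxin and of glucose uptake, had 129 and 82.8. The transcription factors Jund (81.7 and 71.5) and Klf6 (93.4 and 60.6), the cytoplasmic actin Actg1 (76.4 and 69.0) and the histone variant H3f3b (71.3 and 68.2) followed. In 2 of these regions replicate 2 was higher than replicate 1. They lay at Fth1, the heavy chain of the iron store ferritin (67.6 and 77.2), and at Ppp1r3c, which targets a phosphatase to glycogen (59.4 and 75.1). Rsrp1 (99.3 and 56.6), Tnrc6c (78.1 and 56.5), which acts in microRNA silencing, Ing1 (93.2 and 56.2), a chromatin reader, and Gtf2a1 (57.3 and 52.6), a subunit of TFIIA, complete the coding genes. The long non-coding RNA Neat1, the scaffold of paraspeckles, lay under a region of 15956 bp (119 and 68.9), which by position counts as past the 3′ end of Frmd8.

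Contractile genes had regions at the TSS and in the body more often than all genes did, and peaks covered a few of them from one end to the other. A TSS region was found at 12 of 16 thin filament genes, 13 of 20 thick filament genes and 19 of 28 genes of the Z-disc and costamere, and a body region at 8, 10 and 12 of them. The body shares, 50%, 50% and 42.9%, stood beside 8.88% of all genes. Body shares as high were found in lists with no contractile role, at 10 of 24 nuclear receptors and coactivators (41.7%) and 5 of 10 neuronal markers (50%), whose members are longer. Their median spans were 77646.5 and 61514.5 bp, against 10434 bp in the thin filament, 25507.5 bp in the thick filament and 19845 bp in the Z-disc list. At a −log10 p of 3 or more in both lists, a body region was left at 6 nuclear receptors and coactivators and 1 neuronal marker. The thin filament, thick filament and Z-disc lists then had 8, 7 and 10. Coverage, the share of a gene's span that lies under peaks of a list, had a median of 9.17% in the thin filament, 2.40% in the thick filament and 1.37% in the Z-disc list (lower of the replicates), so most members were not covered along their length. In replicate 1 the highest value of these lists was at Tcap, the titin cap protein, with 141 against 33.2 in replicate 2, where Acta1 and Pdlim7 were higher. Both lists covered all of the 1143 bp of Tcap. Acta1, skeletal α-actin, had 131 and 39.9, and both lists again covered all of it. Both replicates were high at these genes, and the first was several times the second on the −log10 scale. Tropomyosin Tpm1 (62.5 and 33.2) and fast troponin T, Tnnt3 (60.9 and 32.9), came next in the thin filament. In the thick filament Myh4 was followed by titin, Ttn (64.7 and 28.4), the giant molecular spring, and the fast myosin-binding protein Mybpc2 (26.4 and 15.4). Peaks covered only 2.38% and 3.0% of the very long Ttn gene.

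Over all genes, coverage was 0.631% at the median gene (lower of the replicates). In only 19 of the 20350 genes of 2 kb or more did both lists cover at least 50%. The 10 most covered were, in falling order of the lower value, Acta1, Nmrk2, Tnni2 and Txnip (100% in both lists), Tnnc2 (97.8% and 100%), Myh4 (86.6% and 89.3%), Gapdh (74.8% and 81.0%), Ckm (74.0% and 74.1%), Ankrd23 (75.7% and 73.1%) and Ube2c (67.0% and 74.7%). Tnni2 and Tnnc2 code for fast troponin I and C, Myh4 for the myosin heavy chain of the fastest fibres, Ckm for muscle creatine kinase, Gapdh for a glycolytic enzyme and Nmrk2 for a kinase of the NAD pathway. Ube2c, a cell cycle enzyme, overlaps Tnnc2 and had no peak at its own TSS, and the gene models of Ankrd23 and Gm42417 share their peaks likewise. The broadest region of all, 22628 bp on chromosome 11 (67235276 to 67257903), lay over Myh4.

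Genes of fast and slow fibres are described side by side for 22 genes that were picked after their values were seen, so the difference between the sets may come from that choice and supports no statement about fibre types. All 12 of the fast set had a TSS region and 11 a body region, whereas 3 of 10 in the slow set had a TSS region and 0 a body region. The median highest −log10 p at a TSS was 43.8 in replicate 1 and 17.6 in replicate 2 for the fast set, and 2.94 and 2.30 for the slow set. Median coverage was 81.2% and 43.1% in the fast set against 1.39% and 1.90% in the slow set. Atp2a1, the fast calcium pump, had 68.9 and 25.7 at its TSS, and its slow counterpart Atp2a2 had 12.4 and 7.74 with no body region. Among myosin heavy chains, Myh4 had 71.3 and 31.9, Myh1 5.69 and 2.26, and Myh2 3.70 and 3.05, while slow Myh7 had 3.38 in replicate 1 and no peak in replicate 2. Embryonic Myh3 and Mybph, a myosin-binding protein, had no TSS peak in either list. Of the thin filament genes, slow Tnni1, Tnnt1 and Tnnc1 and cardiac Actc1 had no region. At Myl2 (2.50 and 1.99) and Myl3 (3.97 and 2.86), the slow myosin light chains, both lists held a TSS peak but the 2 did not overlap, so no region was counted. The sets overlapped in TSS height. Myh1 and Myh2 lay within the range of the slow set, whose highest members were Atp2a2 and Actn2, an actinin that all fibres use, and in replicate 2 the fast actinin Actn3 (7.70) lay just below Atp2a2.

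**Figure D4:**
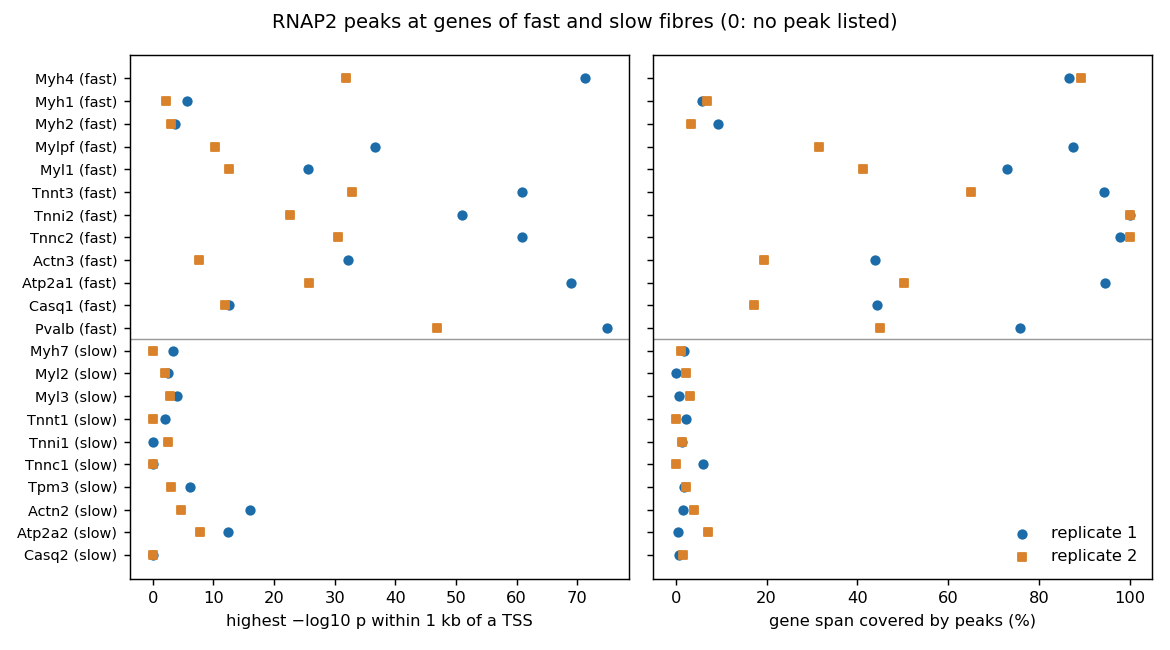
RNAP2 at 12 genes of fast fibres and 10 of slow fibres, as the highest −log10 p within 1 kb of a TSS (left) and the percent of the gene span covered by peaks (right), with 1 point per replicate and 0 where no peak was listed. The genes were picked after their values were seen. Except for Myh1 and Myh2, the fast genes lie at 17.3% coverage or more in both replicates, and every slow gene lies at 7.07% or less.

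Among genes of excitation and calcium release, 20 of 27 (74.1%) had a TSS region and 11 (40.7%) a body region, against 30.1% and 8.88% of all genes. A body region was left at 6 when both lists were restricted to a −log10 p of 3 or more. Median coverage was 1.96%. Pvalb, the calcium buffer parvalbumin of fast fibres, had 74.8 and 46.8. Ryr1, the calcium release channel, had 21.8 and 15.1. No region was found at Chrna1 and Chrne, subunits of the acetylcholine receptor at the nerve contact, at the calcium pump inhibitors Sln and Pln, at Casq2, or at Cacna1s. Other members of the Z-disc list with high values were the actin-associated adaptors Pdlim7 (45.8 and 37.1) and Pdlim5 (29.7 and 20.9) and Des, the intermediate filament desmin (42.1 and 19.0), while Myoz2, Cav3, Csrp3, Cryab, Myoz3, Ankrd2 and Dmd had none.

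Among energy genes, those of glycolysis and phosphate transfer combined strong TSS regions with body regions, and those of the mitochondrion had TSS regions almost alone. A TSS region was present at 29 of 33 glycolysis and glycogen genes and a body region at 16 (48.5%). Ppp1r3c led the list, followed by Ldha, lactate dehydrogenase A (51.9 and 48.3), and Gapdh (80.4 and 45.3). Pgam2, the muscle phosphoglycerate mutase, was covered to 100% and 60.2%, and Aldoa, aldolase A, to 84.1% and 41.2%. Ldhb, the heart form of lactate dehydrogenase, had a TSS peak of 7.49 in replicate 1 and none in replicate 2, and Pfkfb1 and Pfkfb2, forms of the enzyme that sets fructose 2,6-bisphosphate, had no region. Of 8 genes of high-energy phosphate, 7 had a TSS region and 5 a body region. They were led by Adssl1, adenylosuccinate synthase of muscle (44.7 and 37.8), Ckm (84.5 and 31.6) and Ak1, adenylate kinase (35.4 and 15.8), while Ckb, the brain creatine kinase, had none.

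All 23 genes of respiratory complexes III and IV, 30 of 37 of complex I, 12 of 15 of ATP synthase and 29 of 33 of the citric acid cycle and pyruvate dehydrogenase had a TSS region. Body regions were rare in these lists, at 1, 0, 0 and 2 genes. The median span was 3976 bp in complexes III and IV, 8379 bp in complex I, 7760 bp in ATP synthase and 23439 bp in the citric acid cycle list, against 29007 bp in the glycolysis list, and the part of length in the low body shares was not tested. In complex I, Ndufb9 (24.7 in both replicates), Ndufa6 (18.4 and 19.6) and Ndufv1 (17.2 and 13.0) were highest. In complexes III and IV and their carrier they were Cyc1 (29.1 and 18.5), cytochrome c, Cycs (17.7 and 16.9), and Cox4i1 (12.1 and 20.7), and in ATP synthase Atp5a1 (23.7 and 21.4), Atp5b (29.0 and 20.5) and Atp5c1 (22.6 and 20.3). The third list was led by Dlat of pyruvate dehydrogenase (30.9 and 17.7), the kinase Pdk2 that switches that complex off (17.1 and 19.0) and Sdhc, a subunit of succinate dehydrogenase (23.5 and 16.2). Without a region were Atp5e, Atp5j2 and Atp5o of ATP synthase and Idh3b, Idh2, Got2 and Pdk3 of the citric acid cycle list, and of these Atp5j2 had the highest peak of a single list (12.1 in replicate 1). In fatty acid uptake and oxidation, 22 of 28 genes (78.6%) had a TSS region and 4 (14.3%) a body region, against 30.1% and 8.88% of all genes. At a −log10 p of 3 or more in both lists, a body region was left at 1 gene. At the top of this list were Eci1 (18.4 and 14.1), Etfa (13.1 and 14.3) and Acsl1 (12.3 and 11.0). Of its 5 members without a region, Hadh, Lpl, Slc27a1 and Slc25a20 had a TSS peak in replicate 1 only, the highest at the lipase gene Lpl (7.33), and Slc27a4 had peaks in both lists that did not overlap (6.25 and 1.71). In triglyceride storage, 11 of 18 had a TSS region. Abhd5, the activator of the lipase ATGL (18.9 and 11.4), Dgat2, which makes triglyceride (18.8 and 10.3), and Plin4, a lipid droplet coat protein (10.2 and 13.0), were highest. Mgll (11.1), Plin3 (8.34), Plin5 (4.79) and Agpat3 (3.21) had a TSS peak in replicate 1 only, and Agpat2 had no region either.

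**Figure D5:**
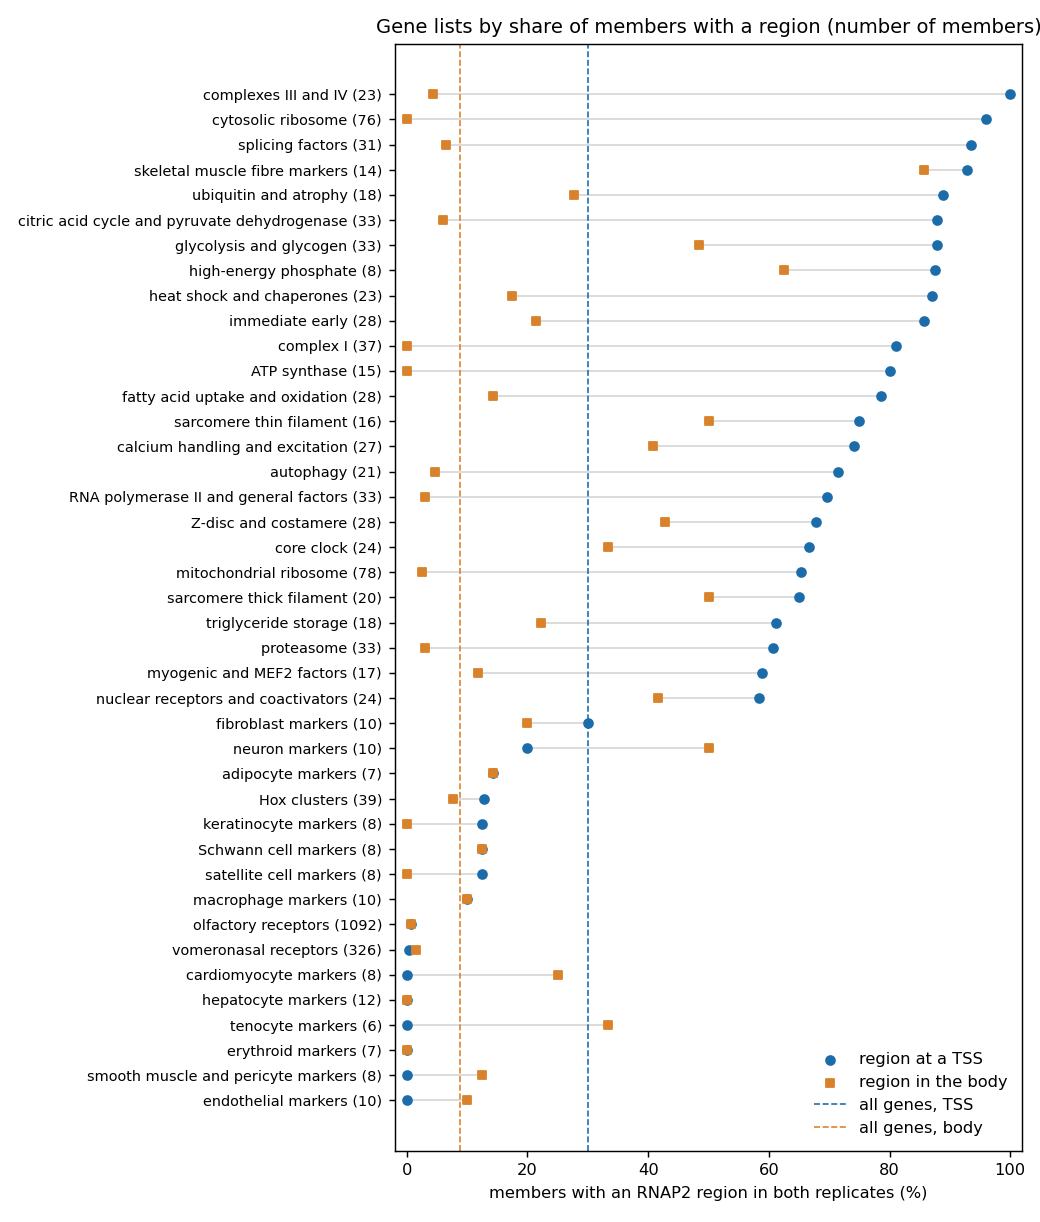
Percent of the members of each gene list (x axis) with an RNAP2 region in both replicates at a TSS (circles) and in the body (squares), with all protein-coding genes as dashed lines (30.1% and 8.88%) and the number of members in parentheses. Lists for respiration, the cytosolic ribosome and splicing lie far right for the TSS and below the share of all genes for the body. The mitochondrial ribosome lies less far right for the TSS (65.4%). Muscle lists lie right for both, and receptor families and most other cell types lie left for the TSS.

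Genes that every cell uses mostly had a region at the TSS, and few had one in the body. A TSS region was present at 73 of 76 genes of the cytosolic ribosome (96.1%), with 0 body regions. It was present at 29 of 31 splicing factors, with 2 body regions (6.45%, near the 8.88% of all genes). Past the 3′ end the cytosolic ribosome had 4 genes (5.26%), the mitochondrial ribosome 4 (5.13%) and the splicing factors 2 (6.45%), against 1.53% of all genes. The polymerase and general factor list had 2 there (6.06%) and the proteasome 0. Rpl3 (50.2 and 30.4), Rps2 (48.2 and 22.3) and Rps12 (26.8 and 21.1) led the ribosomal genes. Rps23 and Rps4x, which had no region, each had a TSS peak in replicate 1 (5.10 and 11.6). The median ribosomal gene spans 3328.5 bp, so that much of it falls inside the TSS window. Srsf7 (96.6 and 41.2), Hnrnpab (56.3 and 31.6) and Hnrnpa2b1 (45.3 and 26.5) led the splicing factors, and Srsf12 and Hnrnph2 had none. The mitochondrial ribosome (51 of 78) and the proteasome (20 of 33) had lower shares. A TSS peak was listed for 70 of the 78 mitochondrial ribosome genes in replicate 1 and 54 in replicate 2, and for 27 and 25 of the proteasome genes. The region at Mrps18b (65.1 and 35.8), the highest of the mitochondrial ribosome, is also that of its divergent neighbour Ppp1r10. Mrpl41 (20.5 and 24.3) came next, and Psma6 (23.1 and 12.0), Psma3 (10.5 and 11.0) and Psmd8 (13.3 and 9.19) led the proteasome. Of the polymerase's own subunits and general factors, 23 of 33 had a TSS region. After Polr2a and Gtf2a1 came Hexim1, the inhibitor of the elongation factor P-TEFb (49.1 and 28.9), while subunit genes Polr2c, Polr2e, Polr2f, Polr2g, Polr2h and Polr2i had none.

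The clock genes were occupied unevenly at ZT 4. Of 24 genes of the clock and its outputs, 16 (66.7%) had a TSS region and 8 (33.3%) a body region, against 30.1% and 8.88% of all genes. At a −log10 p of 3 or more in both lists, a body region was left at 3 of them. The median span was 29990 bp, against 17425 bp over all genes. Among repressors and their kin, Nr1d2, which codes for REV-ERBβ, had 19.6 and 21.1, and Nr1d1, which codes for REV-ERBα, 19.0 and 11.7. Cry2 had 14.3 and 20.3, Cry1 7.17 and 4.91, Per1 12.4 and 14.8, Per3 13.4 and 9.43, and Ciart 9.34 and 2.86. Per2 had a TSS peak of 7.49 in replicate 1 and none in replicate 2. Per1 and Cry2 were thus higher than Cry1 in both replicates. The outputs Dbp and Tef, both PAR bZIP activators, had 32.2 and 14.5, and 22.5 and 15.5. Dbp was covered to 90.7% and 58.4% of its 5116 bp, by far the highest coverage of the clock list. Bhlhe40 (10.4 and 18.5) and Bhlhe41 (10.3 and 11.9), repressors that bind E-boxes, were each covered to 25% or more in both lists. Arntl, which codes for BMAL1, had 5.65 and 3.80, and its partner genes Clock (3.45 and 1.89, not overlapping) and Npas2 had no region. Of the ROR activators, Rora had 9.30 and 10.2, and Rorb had only a weak body region (3.21 and 1.99). Csnk1d, a kinase that controls the stability of clock proteins (6.22 and 6.69), had a region. Csnk1e (10.1 in replicate 1), Hlf (5.56 in replicate 1), Nfil3 (5.71 in replicate 2) and Fbxl21 had none. Levels at a single time do not show a rhythm.

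Of 17 myogenic and related factors, 10 (58.8%) had a TSS region, against 30.1% of all genes. Myod1, a master regulator of the muscle lineage, had 18.9 and 8.12 and Myf6 5.69 and 4.27, while Myog had 3.15 and 1.84 and Myf5, a gene of satellite cells, had no peak in either list. Of the MEF2 genes, Mef2d (13.1 and 18.0) and Mef2a (13.6 and 8.30) had a region, and Mef2c (5.65 and 2.60, not overlapping) and Mef2b did not. Srf (9.29 and 4.20), Tcf3 (4.77 and 3.31), Tcf4 (15.7 and 6.56) and Tead4 (3.97 and 3.25) also had one, whereas Eya1, Tead1, Tcf12 and Six4 did not. Myod1 was thus well above Myog in both replicates. Among nuclear receptors and coactivators, 14 of 24 had a TSS region and 10 a body region. The highest were Ppargc1b, a coactivator of oxidative metabolism (25.4 and 17.9), Nr4a1 (22.6 and 17.0, in the body of its long gene model) and Nrf1 (41.3 and 13.4). Pparg, Thra and Nr4a3 had no region.

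Genes of acute responses carried high peaks. In the immediate early list, 24 of 28 had a TSS region and the median of the lower replicate's highest −log10 p at the TSS was 18.5, the highest of the 28 functional lists, against 0 over all genes. Junb had 61.5 and 48.5, after Jund and Klf6. Gadd45g (44.3 and 39.8), Gadd45b (67.6 and 33.7) and Dusp1 (57.3 and 37.4), inducible regulators of stress kinases, had regions at the TSS, in the body and past the 3′ end. Egr2, Egr3 and Fosl1 had none. Of 23 heat shock proteins and chaperones, 20 had a TSS region, led by Hspa5 (74.5 and 46.5) of the endoplasmic reticulum, Hspa8 (39.9 and 35.3) and Hspb8 (24.6 and 25.3), and Hsph1 and Hspb2 had none. In the ubiquitin and atrophy list 16 of 18 had one. Ubb, a polyubiquitin gene (50.2 and 29.8), Fbxo30 (28.6 and 24.3), Foxo1 (21.9 and 26.8) and Trim63, the ligase MuRF1 (27.0 and 17.3), were high, and Klhl41 and Usp14 had a TSS peak in replicate 1 only. Autophagy genes had one at 15 of 21, with Ctsl, a lysosomal protease (34.1 and 25.3), Sqstm1 (28.6 and 17.4) and Bnip3 (13.1 and 22.8) highest.

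Non-coding loci of muscle carried broad regions. Of the 2360 regions outside protein-coding genes, 34 had a strength of 10 or more. Among these, 24 (70.6%) overlapped an annotated non-coding gene, 6 of them a small nuclear RNA. Over all 2360 the overlap was 436 (18.5%), with 9 at a small nuclear RNA, and over all 10752 regions it was 1642 (15.3%). Over Mir1a-1 and its host transcript, a source of the muscle microRNA miR-1, a region of 6548 bp had 124 in replicate 1 and 48.1 in replicate 2. Over Mir133a-2, a second muscle microRNA gene nearby on chromosome 2, a region of 13086 bp had 44.8 and 13.0. A region of 16436 bp over the non-coding gene Nctc1 (51.8 and 19.4) counts by position as past the 3′ end of Mrpl23. Malat1, an abundant nuclear RNA, had 83.5 and 27.9 over 4362 bp. Only 19 regions were 5 kb or longer. Besides RNA genes they lay mostly over muscle genes such as Ckm (16611 bp), Atp2a1 (13670 bp), Tnnt3 (11419 bp), Tpm1 (8453 bp) and Pvalb (7592 bp). Txnip (6258 bp) and Tob1 (5378 bp) were also among them.

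Receptor families of the nose were nearly empty. A TSS region was found at 7 of 1092 olfactory receptor genes (0.641%) and 1 of 326 vomeronasal receptor genes (0.307%). Of the Hox genes, 5 of 39 had a TSS region (12.8%) and 7 any region (17.9%), against 30.1% and 35.7% of all genes. The highest of the receptor genes was Olfr288, with a region past its 3′ end (10.3 and 4.69), and the highest Hox region (7.64 and 7.22) lay in the overlapping gene models of Hoxc5 and Hoxc6. A TSS peak of at least 1 list was more frequent, at 411 olfactory receptor genes, 98 in replicate 1 and 345 in replicate 2, and none was above 4.88. Histone genes are many near-identical copies from which multi-mapping reads were removed, so their values are uncertain. A TSS region was found at 29 of 71, with H3f3b, which has introns, highest, followed by Hist1h4c (61.5 and 46.1) and Hist1h1c (24.9 and 31.3). On chromosome X, which holds 6.28% of the genome, lay 0.410% of the peaks of replicate 1 and 0.371% of replicate 2, and 92 of its 948 genes (9.70%) had a TSS region against 31.3% of autosomal genes. Among members of the functional lists other than the receptor families, 12 of 20 on X had a TSS region (60%), among them Pgk1, Pdha1 and Rpl10, against 71.7% of 781 on the autosomes. The members on X without one included Dmd, Rps4x, Ndufa1 and Lamp2. The reason for the scarcity on X was not tested.

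Promoters with a region were rich in CpG and in GGGCGG and poor in TATAAA. The sequence table matched 74.7% of the genes with 20010 promoters of 250 bases before to 50 after the start, of which 5525 overlapped a region. GGGCGG on either strand was present in 73.6% of promoters with a region, 38.0% of those without and 47.8% of all. The median ratio of observed to expected CpG was 0.842 with a region and 0.395 without. CCAAT stood in 38.4% with and 37.6% without a region, and CAGCTG in 14.1% and 16.3%, with 37.8% and 15.7% of all promoters. CACGTG was found in 11.3% and 6.81%, with 8.06% of all, and in 21.4% of the 28 promoters of the clock list. That share was not particular to clock genes. It was higher in the autophagy list (38.9% of 18) and the immediate early list (22.2% of 27), and 20.8% of 24 in the Hox list. TATAAA on either strand was found in 5.72% and 14.6%, with 12.2% of all, and in 9.85% of the 883 promoters with a strength of 10 or more. In the usual place, beginning 40 to 20 bases before the start on the gene's strand, TATAAA stood in 1.18% of promoters with a region and 3.0% without, and in 3.40% of those with a strength of 10 or more, with 2.49% of all. The shorter TATAA, tried after these shares were seen, gave 1.85%, 4.96% and 5.89%, with 4.10% of all. Promoters of the thick filament list went the other way from the housekeeping lists, with GGGCGG in 10.5% of 19 and CAGCTG in 42.1%, against 60.6% and 3.03% of 66 promoters of the cytosolic ribosome. CpG-rich promoters overlap in these counts with those that hold GGGCGG, and promoters of 1 gene overlap each other.

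The rule of a peak in both lists left out some strong peaks of a single list. A TSS peak in replicate 1 alone was found at 3026 genes, 174 of them with a −log10 p of 10 or more, led by Isoc2a (42.1), Taf2 (35.5), a subunit of TFIID, and Plrg1 (23.4), a splicing factor. A TSS peak in replicate 2 alone was found at 2363 genes and reached 10 at 2, the histone genes Hist2h3c1 (25.4) and Hist2h3c2 (19.6). At the other side of the rule, the weakest region had a strength of 1.31, and 1894 regions were no higher than the commonest value in both lists, of which 132 lay at a TSS.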

How the data were processed

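RNAP2 ChIP-seq peaks of 2 libraries were analysed. Per the submitters' notes and the study's methods, the authors aligned reads to mm10 with BWA (7.12), removed duplicate reads with SAMtools and multi-mapping reads with bamtools, down-sampled the replicates and called peaks per sample against input with MACS2 2.1.1 at p 0.05. The deposited values are the −log10 p-value and −log10 q-value and the fold enrichment, a ratio of signal to local background at the summit. Reads, tracks and the input library were not analysed here, so the depth behind each peak is unknown and no counting interval is given. Down-sampling, the removal of multi-mapping reads and the permissive p cutoff can each change which weak peaks are listed.

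Peaks were merged at 1 bp overlap, and gene models were those of GENCODE M21. Every TSS of a protein-coding transcript was used, the body was the gene span outside all TSS windows, and the 5 kb past the 3′ end excluded other coding genes and their TSS windows. Regions in several classes counted at the TSS first, then body, then past the 3′ end. Where a gene had several regions, the strongest is given. Named genes were those at the 20 strongest regions, the 10 most covered genes, the 3 highest members of each of 28 functional lists with members that lack a region, and the clock and myogenic genes. Lists, markers and members were chosen with earlier results of these data known, and the fast and slow sets and single-list genes after their values were seen. Some genes that these rules name are not reported here. Placed peaks in simulated lists were returned at 600 of 600 genes. Motifs were searched as exact letters. Alternatives were stricter p and q thresholds, more overlap, equal list sizes, each list alone, and other distances and TSS rules. Python 3.11.15, numpy 2.4.6, scipy 1.17.1 and matplotlib 3.10.9 were used.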

Additional observations from a re-analysis of the deposited data

Results flagged for a closer look

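Peaks of the other lists of the series were present at RNAP2 regions, data that the descriptions above did not use. Of the 10752 RNAP2 regions, 396 (3.68%) held a peak of BMAL1 replicate 1 and 723 (6.72%) of BMAL1 replicate 2. REV-ERBα replicate 1 had a peak in 778 (7.24%) and replicate 2 in 902 (8.39%), and 72 held a peak of all 4 lists. The shares were larger at strong RNAP2 regions. At a strength of 10 or more they were 11.1%, 10.5%, 20.3% and 22.2%, and at a strength under 2 they were 2.23%, 7.38%, 2.33% and 3.16%. Region width was not taken into account in these shares. Most of the 19 regions of 5 kb or longer, many of them strong, held a peak of all 4 lists. The lists come from the same tissue. The reason for the difference was not tested.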

How the results depend on the processing

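Counts were compared with those above within 1.5 times. When both lists were restricted to a −log10 p of 3 or more, 5487 regions, 552 genes with a body region and 156 with one past the 3′ end were left, and TSS genes stayed within that range. At a −log10 q of 1.3 or more, 3155 regions were left, 2903 of them at a TSS, with 3259 genes at the TSS, 253 in the body and 86 past the 3′ end. With equal list sizes, 1287 genes had a body region. A distance past the 3′ end of 2 kb gave 206 genes and one of 10 kb gave 505. With either list alone in place of both, there were 87861 to 168821 regions, 10344 to 11645 of them at a TSS, and 9607 to 10270 genes at a TSS, 9954 to 12949 in the body and 2552 to 4814 past the 3′ end. Asking for 50% of the shorter peak to overlap, other TSS distances, 1 TSS per gene and summit positions moved no other count of regions or genes by more than 1.5 times, nor did dropping the overlap rule within TSS windows (7244 genes, added after seeing the data). Of the 42 list counts at TSSs, 38 stayed within 1.5 times at the stricter p and 27 at the stricter q. No paired analysis was possible because no groups were compared.

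Body regions and weak regions thus rest on the permissive threshold more than TSS regions do. The 2 lists differ in length, depth per peak is unknown, peaks are scarce on chromosome X in all 6 lists of the series (0.0547% to 0.410%), and 1 time point and 2 libraries give no spread between animals.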
